A study of Mus musculus with 9 samples.

Results

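Of 22092 coding genes in mouse heart, 56 were expressed before and just after birth and close to absent in the adult. They were chosen from the expression table, with entries summed per gene name and the mitochondrial and Y chromosomes left out, by a mean of at least 5 FPKM at E18, at least 5 FPKM at 3d and below 0.5 FPKM at 8w. FPKM counts fragments relative to transcript length and to library size, so it is a level per length. A further 8099 genes reached the 5 FPKM floor at both early stages and stayed at or above 0.5 FPKM at 8w, so the 56 were 0.687% of the genes at that floor.

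The series compared wild type mouse hearts at embryonic day 18 (E18), at 3 days (3d) and at 8 weeks (8w), in 9 libraries of 3 per stage. The labels used here name neither strain nor sex. The labels call the libraries biological replicates of heart tissue and of cardiocytes, without stating separate animals, so the p-values measure the spread between these libraries, which may in part be technical. Total RNA was made into libraries with the SMARTER mRNA-Seq kit. Each library held between 12196941 and 15613416 estimated fragments. Cardiomyocyte markers were at summed levels of 22477.7 to 22787.8 FPKM at E18, 21843.9 to 22975.4 FPKM at 3d and 40388.4 to 43281.7 FPKM at 8w, with titin (Ttn), 1 of the 11 genes, listed at 0 at all 3 stages. Fibroblast markers summed to 1033.1 to 1103.4 FPKM at E18, 857.1 to 1233.7 FPKM at 3d and 485.8 to 662.7 FPKM at 8w. Endothelial markers summed to 331.9 to 360.8 FPKM, 345.9 to 443.7 FPKM and 301.6 to 364.5 FPKM at these stages. Genes within a list did not all move alike. In the fit described below, 5 of 9 fibroblast genes were lower and 2 higher at 8w against 3d. Of 10 cardiomyocyte genes tested, 8 were higher and 2 lower. Among all tested genes 37.1% were lower and 21.4% higher. Postn was at 409.0 FPKM at E18 and 32.0 FPKM at 8w, and Dcn at 98.2 and 268.5 FPKM. Lung epithelium markers reached 57.3 FPKM in sum in a 3d library and 103.3 FPKM in an 8w library, against at most 0.543 FPKM at E18.

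Heart muscle cells divide in the fetus and for a few days after birth, and in mice most then leave the cell cycle and grow by enlargement. Dividing cells make a set of mitotic proteins late in the cycle: kinases and cyclins that drive entry into mitosis, a kinetochore that ties chromosomes to the spindle, motors that move along it, and condensins that compact the chromosomes. Many of these genes are switched together through promoter elements bound by NF-Y (the CCAAT box) and by the MuvB complexes (the cell cycle homology region, CHR). Fetal growth also uses imprinted genes and RNA-binding proteins of the IGF2BP family, which are named oncofetal because tumours can switch them on again.

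Of the 56 genes, 31 belonged to lists of cell cycle genes, 5 to a list of replication-dependent histones, 3 to imprinted and oncofetal lists and 4 to a list of developmental matrix and secreted factors, and 13 to no list. The cell cycle lists were mitotic kinases, cyclins and checkpoint (7 genes), centromere and kinetochore (7), spindle, motors and cytokinesis (13), condensin and chromosome structure (2), DNA repair (1) and cell cycle transcription factors and repressors (2), with the kinesin Cenpe in both the kinetochore and the spindle list. No gene came from the lists of DNA replication, fetal transcription factors, axon guidance and neural genes, or fetal sarcomere and ion channel genes. The deposited gene ontology column gave the exact term "cell cycle" to 18 of the 56 (32.1%), against 451 of the 11915 genes with a mean of at least 1 FPKM (3.79%). Other terms were not counted, and Plk1 and Aurkb were among the members without the exact term. None of the 56 was in any of the marker lists for heart or blood cell types.

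Together the 56 genes summed to between 968.1 and 992.7 FPKM in the E18 libraries, 551.3 to 622.1 FPKM in the 3d libraries and 13.2 to 20.9 FPKM in the 8w libraries. The 3 ranges did not overlap. As a share of all coding FPKM this was 0.279% to 0.285% at E18, 0.181% to 0.202% at 3d and 0.00371% to 0.00605% at 8w. The low level at 8w is what chose the genes and is given as a description, with no test. In bulk tissue, fewer cells of a type and less RNA per cell cannot be told apart.

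**Figure D1:**
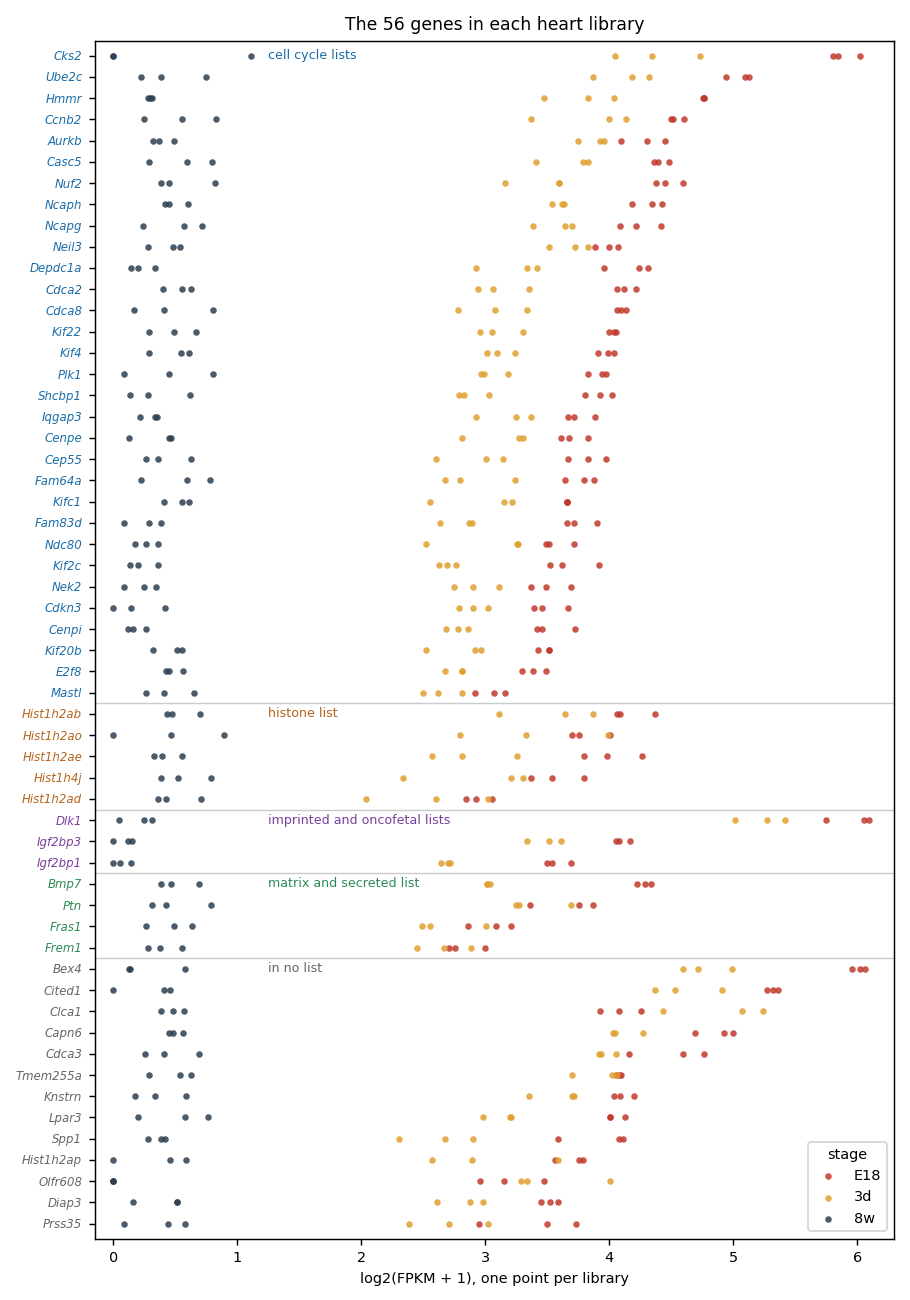
Level of each of the 56 genes as log2(FPKM + 1) on the x axis, with 1 point per library and colour for stage, E18, 3d or 8w (3 libraries each). Genes are grouped by list and ordered by level within a group. The 8w points lie at 1.16 FPKM or less, and in most rows the 3d points lie between those of 8w and E18.

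By mean FPKM the level at 8w was 12.2 to 242.0 times lower than at 3d among the 55 genes with any signal at 8w, with a median of 25.2. The largest ratio was that of Dlk1, and the limits of the rule bound the smallest. Each gene had between 0 and 323 fragments over the 3 adult libraries (median 34.5), and 25 genes had under 30, so counting error alone is wide for short genes. In 29 of the 56 genes every 8w library was below 0.5 FPKM, and the highest single value was 1.16 FPKM. The 8w libraries were not alike: replicate 3 was the lowest of the 3 for 37 genes and had the lowest sum. At the early stages 44 genes were at 5 FPKM or more in each of the 6 libraries.

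The genes nearest the limits show how the rule divides related genes. Just below the 8w ceiling were Hist1h4j (0.49 FPKM), Casc5 (0.488), Ccnb2 (0.477), Nuf2 (0.476) and Fam64a (0.462), and just outside it were Tgif2 (0.5), Esco2 (0.504), Aspm (0.509), Ckap2l (0.517) and Pafah1b3 (0.521). Just inside the 3d floor were Hist1h2ad (5.11 FPKM), Spp1 (5.26), Mastl (5.26), Frem1 (5.39) and Igf2bp1 (5.43). Just outside it were E130309F12Rik (4.99), Kif15 (4.73), Bora (4.61), Prr11 (4.6) and Ror2 (4.55). Nearest the E18 floor were Frem1 (6.09 FPKM), Hist1h2ad (6.7), Mastl (7.3), Fras1 (7.33) and Olfr608 (8.24), and no gene that met the other limits lay below that floor.

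Some of the genes that drive entry into and exit from mitosis, such as Cks2 and Ube2c, were among the highest of the 56, and others were lower. Cks2 (chr13:51645232-51650660, plus strand, GENCODE vM21 on GRCm38, as for the other genes located here), a small subunit that binds cyclin-dependent kinases, had 63.9, 56.6 and 54.8 FPKM at E18 and 15.5, 25.5 and 19.3 FPKM at 3d. At 8w it was listed near 0 in replicates 1 and 2 and at 1.16 FPKM in replicate 3, from 9 fragments in all. Its adult value has a limit: a sense lncRNA entry that overlaps its exons (uc007qmi.2) was at 1.58 and 1.18 FPKM in the adult replicates 1 and 2 and near 0 in replicate 3, the reverse of Cks2. The sum of both entries was 1.58, 1.18 and 1.16 FPKM at 8w, a mean of 1.3 ± 0.239 FPKM (SD, n = 3), which is above the ceiling, so Cks2 met the rule only with its fragments split from that entry. On the summed level it was at 58.4 ± 4.79 FPKM at E18 and 23.3 ± 6.9 FPKM at 3d.

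Ube2c, the ubiquitin-conjugating enzyme that works with the anaphase-promoting complex, had 33.9, 33.2 and 29.7 FPKM at E18, 13.6, 19.0 and 17.2 FPKM at 3d and 0.681, 0.302 and 0.164 FPKM at 8w. Ccnb2, cyclin B2, had 21.8, 21.6 and 23.3 FPKM at E18, 9.34, 16.6 and 15 FPKM at 3d and 0.774, 0.471 and 0.187 FPKM at 8w. Aurkb, the kinase of the chromosomal passenger complex, had 16.1, 20.9 and 18.8 FPKM at E18, 14.5, 14.2 and 12.4 FPKM at 3d and 0.402, 0.246 and 0.291 FPKM at 8w. In all 3 genes the lowest E18 library was above the highest 3d library, with the smallest gap for Aurkb. The other kinases were lower: Plk1, which acts at several steps of mitosis, had a mean of 14.1 ± 0.815 FPKM at E18, 7.29 ± 0.701 FPKM at 3d and 0.389 ± 0.341 FPKM at 8w (SD, n = 3 each). Nek2, a centrosome kinase, and Mastl, the Greatwall kinase, were at 10.5 ± 1.31 and 7.3 ± 0.696 FPKM at E18, 6.6 ± 0.959 and 5.26 ± 0.691 FPKM at 3d and 0.172 ± 0.103 and 0.365 ± 0.191 FPKM at 8w.

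The promoters of 4 mitotic members are shown as examples that hold both of the motifs searched first. Each window is RefSeq sequence of build GRCm38.p6, running 5′ to 3′ on the strand of the gene from 250 bases before to 50 bases after the annotated start, with capitals for CCAAT and TTTGAA and for the E2F-type motifs named below, on either strand. Ube2c lies at chr2:164769679-164769978 (plus strand), Hmmr at chr11:40733388-40733687 (minus), Ccnb2 at chr9:70421505-70421804 (minus) and Plk1 at chr7:122159185-122159484 (plus).
Ube2c: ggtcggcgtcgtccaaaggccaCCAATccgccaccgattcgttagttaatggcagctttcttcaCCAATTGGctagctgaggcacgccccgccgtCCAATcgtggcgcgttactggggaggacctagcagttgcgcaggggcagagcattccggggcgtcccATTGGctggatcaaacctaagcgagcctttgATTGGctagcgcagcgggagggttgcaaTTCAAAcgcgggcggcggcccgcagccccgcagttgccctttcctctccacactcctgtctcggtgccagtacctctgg
Hmmr: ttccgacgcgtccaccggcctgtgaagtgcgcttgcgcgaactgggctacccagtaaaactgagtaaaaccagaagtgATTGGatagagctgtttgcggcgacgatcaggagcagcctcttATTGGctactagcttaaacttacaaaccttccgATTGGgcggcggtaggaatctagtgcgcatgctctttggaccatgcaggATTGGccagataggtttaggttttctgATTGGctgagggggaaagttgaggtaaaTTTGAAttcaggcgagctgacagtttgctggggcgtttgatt
Ccnb2: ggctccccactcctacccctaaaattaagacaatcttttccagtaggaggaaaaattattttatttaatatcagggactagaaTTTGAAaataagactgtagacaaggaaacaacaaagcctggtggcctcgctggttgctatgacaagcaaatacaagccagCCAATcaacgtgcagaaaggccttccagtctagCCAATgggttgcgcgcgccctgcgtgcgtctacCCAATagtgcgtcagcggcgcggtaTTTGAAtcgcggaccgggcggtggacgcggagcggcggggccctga
Plk1: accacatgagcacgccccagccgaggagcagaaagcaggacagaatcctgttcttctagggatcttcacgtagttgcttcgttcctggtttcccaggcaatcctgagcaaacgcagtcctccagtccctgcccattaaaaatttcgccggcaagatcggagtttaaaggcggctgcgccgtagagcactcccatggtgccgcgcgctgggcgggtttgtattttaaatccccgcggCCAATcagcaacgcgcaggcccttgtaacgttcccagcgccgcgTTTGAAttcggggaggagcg

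Ube2c held 6 CCAAT matches and 1 TTTGAA match, and Hmmr held 5 and 1. Ccnb2 held 3 and 2 and Plk1 held 1 of each. In Ccnb2 the CCAAT matches began 87, 54 and 21 bases before the start.

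RefSeq windows were matched for 46 of the 56 genes by gene identifier, 51 windows in all, since Cited1, Frem1, Cep55 and Spp1 have several starts. Aurkb, Bmp7, Cdca2, Clca1, Diap3, Fam64a, Fras1, Igf2bp1, Olfr608 and Shcbp1 had no entry. CCAAT, on either strand, was in 62.7% of the 51 windows, against 37.4% of all 32851 RefSeq promoter windows of the same length. TTTGAA, the core of the CHR, was in 56.9% against 17.9%, and both were in 41.2% against 6.95%. Of the 28 windows of the cell cycle members, 13 held both, and those of Nuf2, Ncaph and Neil3 held neither. The share with TTTGAA was 71.4% in the 28 windows of the cell cycle members and 39.1% in the 23 windows of the other members. In the 109 windows of cell cycle list genes at the early floor that kept 0.5 FPKM or more at 8w, CCAAT was in 61.5% and TTTGAA in 35.8%. That set includes genes of the DNA replication list, which supplied no member. Its contrast with the members therefore cannot separate the kind of cell cycle gene from the adult level. Sites of E2F type (TTTCCCGC, TTTGGCGC or TTCCCGCC) were in 3.57% of the windows of the cell cycle members, against 22.9% of those 109 windows and 3.21% of all windows. The GC box GGGCGG was in 71.4% of the cell cycle members' windows, 78.0% of the 109 and 35.7% of all, while TATAAA was in 30.4% of the other members' windows and 13.6% of all. GATAAG was in 3.92% of the 51 windows and 7.44% of all. GC content was 56.2% in the members' windows and 53.8% in all. A CCAAT and a TTTGAA match shared bases in 1 of the 51 windows, and no GC box shared bases with an E2F-type match. These shares are a description of letters in a window and no test was made.

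**Figure D2:**
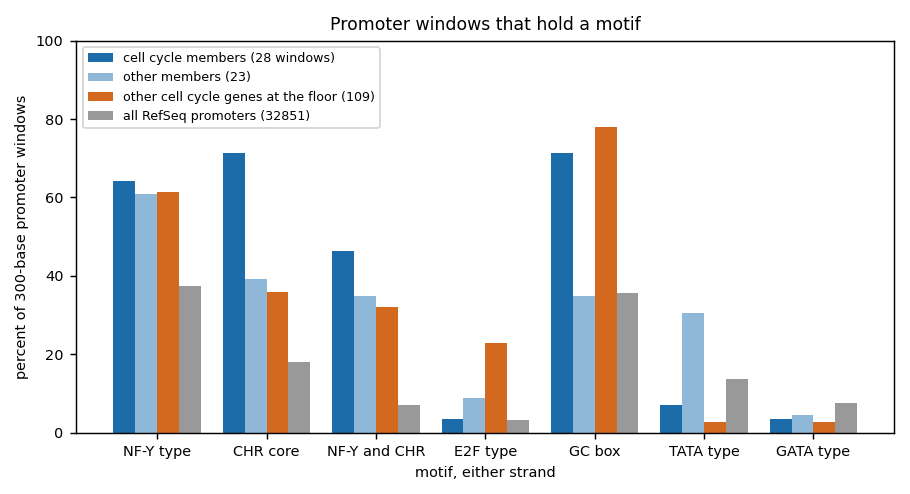
Percent of 300-base promoter windows (y axis) that hold each motif on either strand, with bars for cell cycle members (28 windows), other members (23), the other cell cycle genes at the floor (109) and all RefSeq promoters (32851). The CHR core stands at 71.4% in cell cycle members against 35.8% in the other cell cycle genes, and the E2F type at 3.57% against 22.9%. The other cell cycle genes include DNA replication genes, and the members include none from that list.

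The kinetochore supplied 7 genes. Nuf2 and Ndc80 encode subunits of the NDC80 complex, which binds microtubule ends. Nuf2 had 19.8, 23.1 and 20.9 FPKM at E18, 7.95, 11.1 and 11.1 FPKM at 3d and 0.361, 0.766 and 0.302 FPKM at 8w. Ndc80 had 10.4, 12.1 and 10.2 FPKM at E18, 4.75, 8.56 and 8.59 FPKM at 3d and 0.285, 0.2 and 0.125 FPKM at 8w. Of their partners in the complex, Spc25 was at 37.9, 18.4 and 0.697 FPKM (means at E18, 3d and 8w), above the ceiling, and Spc24 at 4.11, 1.83 and 0.292 FPKM, below the floor. Casc5, named Knl1 in GENCODE, a scaffold that recruits checkpoint proteins, was at 20.3 ± 0.942 FPKM at E18, 11.9 ± 1.96 FPKM at 3d and 0.488 ± 0.256 FPKM at 8w (SD, n = 3 each). Cdca8 (borealin) belongs with Aurkb to the chromosomal passenger complex and was at 16.1, 7.48 and 0.397 FPKM. Its partners Birc5 (survivin) at 45.2, 23.6 and 0.86 FPKM and Incenp at 11.2, 7.63 and 1.01 FPKM stayed above the ceiling. Parts of 1 complex stood on both sides of the 0.5 FPKM limit. Cdca2, a chromatin-bound phosphatase subunit, was at 16.5, 7.75 and 0.445 FPKM, the kinesin Cenpe at 12.1, 7.85 and 0.279 FPKM, and Cenpi, a constitutive centromere protein, at 10.6, 5.85 and 0.134 FPKM.

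Spindle, motor and cytokinesis genes formed the largest group. Hmmr, a spindle-associated hyaluronan receptor, had 26.1, 26.0 and 26.2 FPKM at E18, 10.1, 15.4 and 13.2 FPKM at 3d and 0.238, 0.229 and 0.213 FPKM at 8w. Its E18 values were nearly level, and those at 3d spread more. The 8w values were close in FPKM but rest on 17, 10 and 8 fragments, too few to show that those libraries were level. Depdc1a had 14.5, 18.9 and 17.9 FPKM at E18, 6.61, 9.67 and 9.11 FPKM at 3d and 0.149, 0.259 and 0.106 FPKM at 8w. Among kinesins, the motors of the spindle, Kif22 and Kif4 bind chromosome arms, Kif2c shortens microtubules and Kifc1 walks to their minus ends. Kif22 was at 15.3 ± 0.27 FPKM at E18, 7.66 ± 1.09 FPKM at 3d and 0.403 ± 0.181 FPKM at 8w, and Kif4 at 14.8, 7.69 and 0.403 FPKM. Kif2c, Kifc1 and Kif20b had lower means, between 10.2 and 11.9 FPKM at E18. The other spindle members, Shcbp1, Iqgap3, Cep55 (which acts in the last cut between daughter cells), Fam64a and Fam83d, had means between 12.5 and 14.1 FPKM at E18, 5.98 and 8.14 FPKM at 3d and 0.196 and 0.462 FPKM at 8w. The kinesin Kif11, which slides spindle microtubules apart, was at 35.6, 17.1 and 0.76 FPKM and did not meet the rule. Ncapg and Ncaph, subunits of condensin I, had 16.0, 20.4 and 17.6 FPKM and 20.5, 19.3 and 17.2 FPKM at E18, 9.43, 11.5 and 12.0 FPKM and 11.4, 11.3 and 10.6 FPKM at 3d, and at most 0.641 FPKM in any 8w library. Their partners stayed measurable at 8w, with Smc4 at 10.4 FPKM, Ncapd2 at 4.71 FPKM and Smc2 at 1.92 FPKM. E2f8, a repressor of the E2F family, had 10.2, 8.84 and 9.47 FPKM at E18, 5.38, 6.03 and 6.02 FPKM at 3d and 0.345, 0.476 and 0.364 FPKM at 8w. Its paralog E2f7 was at 9.46, 8.42 and 1.29 FPKM. Cdkn3, a phosphatase of cyclin-dependent kinases, was at 10.4, 6.49 and 0.144 FPKM, and Neil3, a DNA glycosylase, at 14.9, 11.9 and 0.352 FPKM.

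The cell cycle lists held 239 genes of the table, of which 148 reached 5 FPKM at both early stages. Of those, 31 were under 0.5 FPKM at 8w, 30 were between 0.5 and 1, 26 between 1 and 2, 32 between 2 and 5, and 29 at 5 or more. The ceiling divides a continuous range, with as many genes in the next bin above it. In the DNA replication list all 31 genes at the floor stayed above the ceiling, at 0.579 to 23.6 FPKM, led at 3d by Pcna (23.6 FPKM at 8w), Rrm2 (2.25), Rrm1 (5.88) and Mcm7 (5.44). A further 11 genes of that list were under 0.5 FPKM at 8w but were below the floor at E18 or 3d. Replication genes with low adult levels were thus left out by the early floor. In the spindle list 13 of 33 genes at the floor were under the ceiling.

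**Figure D3:**
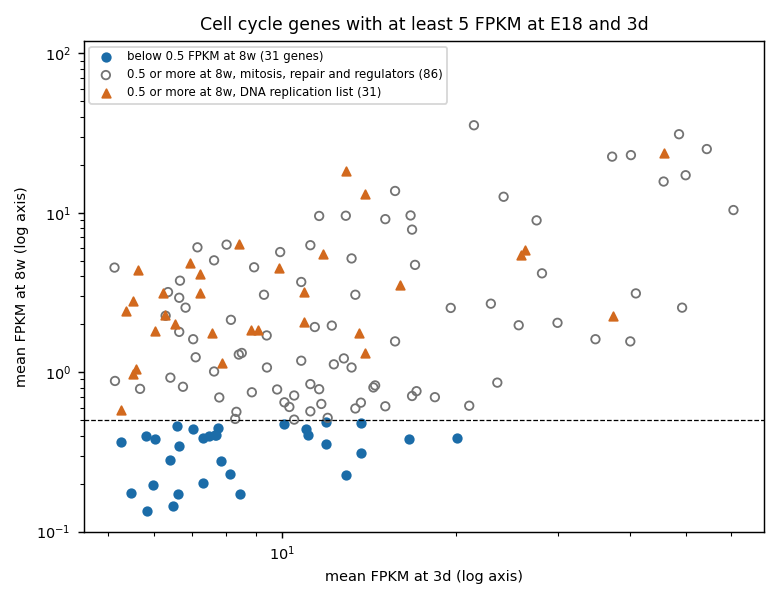
Mean FPKM at 8w (y axis, log) against mean FPKM at 3d (x axis, log) for the 148 cell cycle list genes with at least 5 FPKM at E18 and 3d. The dashed line is the ceiling of 0.5 FPKM, filled circles are the 31 members, and triangles are the DNA replication genes at that floor, all of them above the line. Replication genes below the floor are not drawn.

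The 6 histone genes lie in the cluster on chromosome 13, where copies are near identical and their messages mostly lack poly(A) tails, so their fragments could be divided among copies and each value is uncertain. Hist1h2ab had 16.0, 15.7 and 19.7 FPKM at E18, 11.5, 13.6 and 7.65 FPKM at 3d and 0.348, 0.388 and 0.626 FPKM at 8w. Hist1h2ae had 12.9, 14.8 and 18.2 FPKM at E18, 6.01, 8.57 and 4.93 FPKM at 3d and 0.313, 0.463 and 0.251 FPKM at 8w. Hist1h2ad, Hist1h2ao, Hist1h4j and Hist1h2ap, a histone H2A gene that was not in the list, had means between 6.7 and 13.2 FPKM at E18. Of the 5 listed genes, all were lowest of the 3d libraries in replicate 3, with a sum of 25.7 FPKM against 45.7 and 47.3 FPKM in replicates 1 and 2. Over the 3 adult libraries each of the 6 had 5 to 15 fragments. Other histone genes kept a higher adult level, such as Hist1h4d at 46.3 FPKM and Hist1h4h at 53.3 FPKM at 8w.

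The imprinted and oncofetal genes had the lowest median adult level of the groups, 0.0649 FPKM. Dlk1 (chr12:109452823-109463336, plus strand), a paternally expressed transmembrane protein of the Notch ligand family, had 65.4, 52.7 and 67.3 FPKM at E18, 41.8, 37.7 and 31.3 FPKM at 3d and 0.238, 0.0338 and 0.186 FPKM at 8w. Its mean FPKM was 242.0 times lower at 8w than at 3d. By fragments its level was 154.4 times lower, with a 95% counting interval of 83.7 to 322.9 from 10 adult fragments. Igf2bp3 and Igf2bp1 bind messages such as that of Igf2. Igf2bp3 had 15.6, 15.9 and 17.0 FPKM at E18, 9.09, 10.4 and 11.2 FPKM at 3d and 0.112, 0.0826 and 0 FPKM at 8w, and was 158.6 times lower at 8w than at 3d (95% counting interval 95.9 to 283.9). Igf2bp1 had 11.9, 10.6 and 10.3 FPKM at E18, 5.23, 5.57 and 5.48 FPKM at 3d and 0.102, 0.0348 and 0 FPKM at 8w. Their paralog Igf2bp2 was at 28.0, 24.7 and 4.0 FPKM. The 13 other imprinted growth genes at the early floor stayed above the ceiling, at 1.02 to 183.2 FPKM at 8w. Among them were Igf2 at 722.7, 472.9 and 14 FPKM and Mest at 517.5, 282.9 and 8.12 FPKM. Of the 23 genes of that list, 9 were under 0.5 FPKM at 8w, Dlk1 among them. The rest of these 9 were left out by the early floor. The window of Igf2bp3 (chr6:49214905-49215204, minus strand) held 1 CCAAT and 2 TTTGAA matches, and that of Dlk1 (chr12:109452573-109452872, plus strand), shown for contrast, held none of either.
Igf2bp3: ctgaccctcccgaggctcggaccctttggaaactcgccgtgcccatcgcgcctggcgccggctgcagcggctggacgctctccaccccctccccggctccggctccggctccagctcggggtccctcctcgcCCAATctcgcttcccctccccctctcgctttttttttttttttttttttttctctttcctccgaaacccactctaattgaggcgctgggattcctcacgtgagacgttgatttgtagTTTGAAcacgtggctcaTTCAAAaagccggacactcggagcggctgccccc
Dlk1: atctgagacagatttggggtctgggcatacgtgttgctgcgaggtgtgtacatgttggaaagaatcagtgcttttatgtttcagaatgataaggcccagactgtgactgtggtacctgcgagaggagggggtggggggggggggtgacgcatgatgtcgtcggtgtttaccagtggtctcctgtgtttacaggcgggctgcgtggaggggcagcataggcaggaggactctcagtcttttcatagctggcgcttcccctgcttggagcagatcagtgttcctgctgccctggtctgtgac

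Among matrix and secreted factors, Bmp7 (chr2:172868012-172940321, minus strand), a ligand of the bone morphogenetic protein family, had 17.7, 19.2 and 18.5 FPKM at E18, 7.2, 7.09 and 7.07 FPKM at 3d and 0.611, 0.378 and 0.306 FPKM at 8w. Fras1 and Frem1 encode proteins of the Fraser complex in basement membranes. Fras1 had 8.22, 6.26 and 7.51 FPKM at E18, 7.03, 4.86 and 4.62 FPKM at 3d and 0.399, 0.553 and 0.199 FPKM at 8w. Frem1 had 5.76, 5.52 and 6.99 FPKM at E18, 6.37, 5.34 and 4.46 FPKM at 3d and 0.296, 0.471 and 0.215 FPKM at 8w. Their partner Frem2 was level across the stages, at 5.31, 5.63 and 6.04 FPKM. Ptn, pleiotrophin, a heparin-binding growth factor, had 13.6, 9.27 and 12.5 FPKM at E18, 11.9, 8.47 and 8.66 FPKM at 3d and 0.341, 0.723 and 0.241 FPKM at 8w. For Fras1, Frem1 and Ptn the 3d and E18 libraries overlapped. The paralog Mdk (midkine) was at 25.0, 15.7 and 2.03 FPKM.

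Of the 13 genes in no list, Cdca3 and Knstrn carried the exact term "cell cycle" in the deposited annotation. Bex4 (chrX:136138996-136140443, plus strand), a small protein of an X-linked family, had 64.1, 65.8 and 61.0 FPKM at E18, 23.1, 25.3 and 30.8 FPKM at 3d and 0.493, 0.0911 and 0.099 FPKM at 8w. Cited1, a transcriptional coactivator that binds CBP/p300, had 37.6, 40.0 and 39.0 FPKM at E18, 29.0, 22.1 and 19.7 FPKM at 3d and 0.372, 0.33 and 0 FPKM at 8w. Capn6, a calpain without protease activity that stabilises microtubules, had 31.0, 24.9 and 29.4 FPKM at E18, 18.3, 15.5 and 15.3 FPKM at 3d and 0.362, 0.477 and 0.396 FPKM at 8w. These 3 genes, with Cenpi, Kif4 and Tmem255a, put 6 of the 56 on the X chromosome (10.7%, against 3.31% of the tested genes). Chromosome 13 held 7 (12.5%, against 3.95%), the 6 histone genes and Cks2. Spp1, the secreted matrix protein osteopontin, had 16.3, 11 and 15.9 FPKM at E18, 3.94, 5.37 and 6.47 FPKM at 3d and 0.215, 0.332 and 0.302 FPKM at 8w. Its 3d replicate 1 was below the floor that its mean passed. Lpar3 (a receptor for lysophosphatidic acid), Tmem255a, Prss35 and Diap3 (a formin, Diaph3 in GENCODE) had means between 9.78 and 15.9 FPKM at E18, 5.62 and 14.3 FPKM at 3d and 0.303 and 0.447 FPKM at 8w.

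A pair of genes had a higher mean at 3d than at E18. The entry listed as Clca1 carries the identifier of Clca3a1 in GENCODE (chr3:144729677-144760977, minus strand), a regulator of chloride channels, and had 20.6, 36.8 and 32.6 FPKM at 3d and 18.1, 14.2 and 15.9 FPKM at E18. At 8w it had 0.482, 0.395 and 0.301 FPKM, from 70 fragments. Olfr608, an olfactory receptor gene, had 15.1, 9.1 and 8.75 FPKM at 3d and 6.77, 7.87 and 10.1 FPKM at E18, with overlapping libraries. It was at 0 in each 8w library. When 3 fragments over the group stand for the count of 0, its level was 150.1-fold lower at 8w than at 3d. The 95% counting interval of the ratio begins lower, at 121.5.

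**Figure D4:**
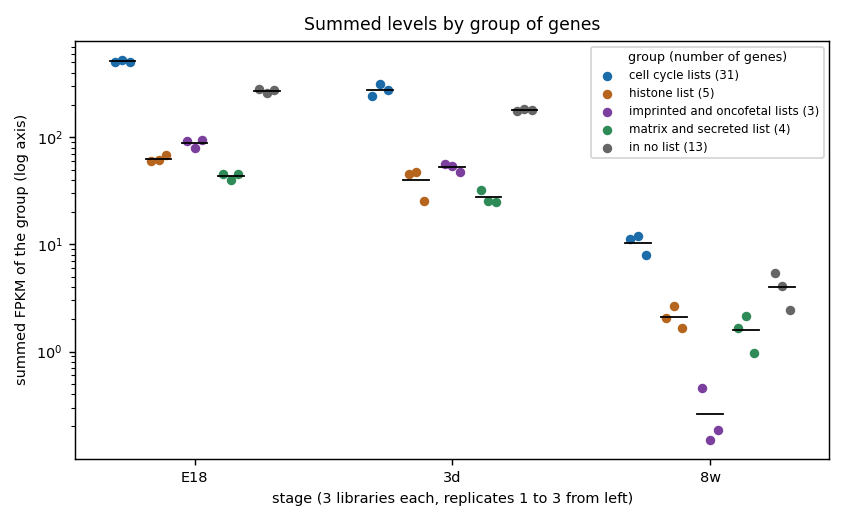
Summed FPKM (y axis, log) of each group of genes in every library, by stage, with a bar at the mean of 3 libraries. The cell cycle group lies at 506.8 to 530.3 FPKM at E18, 241.5 to 312.3 FPKM at 3d and 7.92 to 11.9 FPKM at 8w, and the imprinted and oncofetal group is lowest at 8w, at 0.151 to 0.453 FPKM.

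The levels at 3d and E18 were compared across the whole table. The rule fixed no direction between them but is not independent of them: the floor at 3d left out 54 of the 110 genes that met the other limits, while the floor at E18 left out none, so the counts and the median of the 56 depend on those floors. With limma-trend on log2(FPKM + 1) and Benjamini-Hochberg adjustment over 11915 genes, 43 of the 56 fell at 3d against E18, 1 rose and 12 did not pass. Over all tested genes 21.5% were called lower and 4.95% higher, and among the other genes at the floor 23.8% and 4.49% were. All 56 passed the filter of a mean of 1 FPKM through their early levels. The median log2 fold change was -0.70 over the 56 and -0.15 over all tested genes. In 46 of the 56 every 3d library was below every E18 library, as in 4220 of the 11915 tested genes. Among the 8099 other genes at the floor, 3149 were separated in this way. With each library scaled to the same median, 32 of the 56 fell and 1140 of the tested genes rose while 1006 fell, and edgeR on recovered fragments called 32 of the 56 lower.

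Of the cell cycle members 28 of 31 were called lower and none higher, and in all 31 the 3d libraries lay below the E18 libraries. The same separation was seen in 106 of the 117 cell cycle list genes at the floor that were not members. The largest fall was that of Cks2, with a log2 fold change of -1.52 ± 0.27 (SE, adjusted p = 0.00343). Cdca8, Shcbp1, Nuf2 and Cdca2 followed at -1.03 ± 0.18, -1.03 ± 0.15, -1.02 ± 0.16 and -1.01 ± 0.13. Plk1 fell by 0.87 on the log2 scale (adjusted p = 0.00501) and Aurkb by 0.41 (adjusted p = 0.0345). With libraries scaled to a common median, 21 of the 28 calls held, and those of Aurkb, Ccnb2 (-0.70, adjusted p = 0.0276), Cdkn3, Cenpe, Iqgap3, Ncapg and Nek2 were lost. With a pseudocount of 0.1, 17 held and 11 were lost, Cks2 and Plk1 among them, and the call of Cks2 was also lost with DESeq2. That fit takes its spread from the 8w libraries too, whose part in the losses was not tested. With the 6 libraries of E18 and 3d alone, on log2(FPKM + 1), all 28 calls held. The 3 not called were Ndc80 (-0.56, adjusted p = 0.0519), Mastl (-0.41, adjusted p = 0.0618) and Neil3 (-0.30, adjusted p = 0.106). Cell cycle list genes at the floor that stayed above 0.5 FPKM at 8w were called lower in 95 of 117 and higher in none. The medians were -0.76 for the 31 members and -0.78 for these 117, and the difference between the sets was not tested.

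Outside the cell cycle, the log2 change of Bmp7 was -1.26 ± 0.12 (adjusted p = 0.000157), that of Spp1 -1.30 ± 0.18 (adjusted p = 0.00117) and that of Bex4 -1.25 ± 0.14 (adjusted p = 0.000574). Dlk1, Igf2bp1 and Igf2bp3 all fell, by 0.73, 0.89 and 0.62 on the log2 scale. The calls of Dlk1 and Igf2bp3 were lost with a pseudocount of 0.1, and that of Igf2bp3 also with edgeR. Of the 5 listed histone genes, Hist1h2ae (-1.13 ± 0.18, adjusted p = 0.00219) and Hist1h2ab (-0.63 ± 0.19, adjusted p = 0.0301) fell, and the call of Hist1h2ab was lost without any single E18 library. Clca1 was the gene that rose, by 0.83 ± 0.19 (adjusted p = 0.00963), and every 3d library was above every E18 library. Outside the cell cycle lists 9 genes were not called. The histone genes among them were at -0.69 for Hist1h2ap (adjusted p = 0.0567), -0.62 for Hist1h4j (adjusted p = 0.0813), -0.45 for Hist1h2ao and -0.39 for Hist1h2ad. The others were at -0.15 for Frem1 and for Tmem255a, -0.26 for Ptn, -0.37 for Fras1 and 0.35 for Olfr608. For Frem1 and Tmem255a the sign turned when libraries were scaled to each other.

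**Figure D5:**
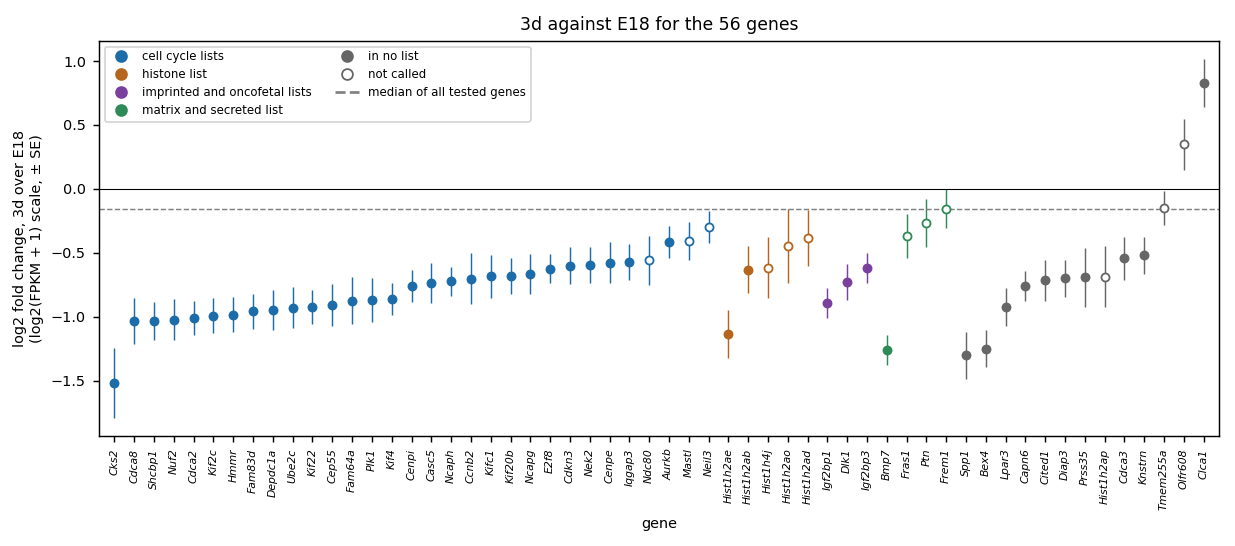
Log2 fold change of 3d over E18 (y axis, log2(FPKM + 1) scale, bars are SE) for each of the 56 genes (x axis), grouped by list. Filled points passed the adjusted p of 0.05, and the dashed line is the median of all tested genes at -0.15. The cell cycle members lie between -1.52 and -0.30, and Clca1 is the filled point above 0.

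The 3d libraries differed among themselves. Replicate 1 was the lowest of the 3 for 21 of the 31 cell cycle members and replicate 2 the highest for 22 of them, while replicate 1 was the highest for all 4 matrix and secreted genes. Their sums were 241.5, 312.3 and 276.4 FPKM for the cell cycle members and 32.5, 25.7 and 24.8 FPKM for the matrix and secreted genes. Without 3d replicate 1, 42 of the 56 were called lower, and without 3d replicate 2, 41.

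Markers of 2 other cell types moved with these falls. Of 28 erythroid genes with an entry, 14 were tested, of which 6 were lower and none higher at 3d against E18, and the list summed to 3322.9 to 3619.4 FPKM at E18, 1053.2 to 1410.5 FPKM at 3d and 744.7 to 1637.8 FPKM at 8w. The erythroid factors Klf1 and Gata1 were below 0.1 FPKM on average at every stage, and Hbb-bh2 was at 0. Of 11 epicardial genes 8 were tested and 5 were lower, with sums of 58.9 to 69.4 FPKM at E18, 37.4 to 42.1 FPKM at 3d and 14.5 to 18.6 FPKM at 8w, and none was at 0. The part of these cells in the falls was not tested.

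Genes of the supplying lists outside the 56 were mostly lower at 8w than at 3d, with exceptions. In the fit, 24 of 25 other mitotic kinase and checkpoint genes, 27 of 28 other kinetochore genes and all 30 other spindle genes were lower, and none was higher. Over all tested genes 37.1% were lower and 21.4% higher. In the matrix list 23 of 28 others were lower and none higher. In the imprinted list 11 of 14 others were lower and 3 higher (Gnas, Snrpn and Impact), in the oncofetal list 8 of 11 were lower and 1 higher (E2f6), and in the DNA repair list 25 of 32 were lower and 1 higher (Ung).

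Other RNAs at the same loci were few. Of 35 lncRNA entries at the 56 loci, 13 were at 0 in every library and 5 had a mean of at least 0.5 FPKM. None of the 5 was called by limma-trend at 3d against E18 (2 at an unadjusted p under 0.05), where 4.33% of 3626 tested entries were. Gm14858, which starts opposite Cited1, was at 0.634 ± 0.121 FPKM at 3d and 1.32 ± 0.636 FPKM at E18 (SD, n = 3 each, log2 fold change -0.47 ± 0.20, adjusted p = 0.225), and at 0.0111 FPKM at 8w. AK155849, antisense within an intron of Igf2bp3, stayed at 1.2, 1.33 and 1.05 FPKM over the stages while Igf2bp3 was at 16.2, 10.2 and 0.0649 FPKM. An entry in the sense of Cenpi (2_00033094) was at 1.07 ± 1.0 FPKM at 3d and 4.57 ± 2.26 FPKM at E18 (adjusted p = 0.119). The entry uc009biz.1, listed under the name Ptn and classed as intergenic, was at 15.2, 11.1 and 0.635 FPKM. Strand was not stated for the counting, so fragments of entries that overlap a gene cannot be told apart from those of the gene. The same holds for Ube2c with Tnnc2, Igf2bp3 with Malsu1, Kif4 with Pdzd11, Ncapg with Lcorl, Cdca8 with 9930104L06Rik and Tmem255a with Zbtb33, pairs that overlap on opposite strands.

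Circular RNAs, read as back-splice junctions, came from 8 of the 56 genes. The 15 circRNAs held 40 of 10649 junction reads at E18 (0.376%, 95% Wilson interval 0.276% to 0.511%), 28 of 9629 at 3d (0.291%, 0.201% to 0.42%) and 0 of 12535 at 8w, which allows up to 0.0239% by 3 reads of the total and 0.0306% by the upper Wilson limit. Casc5 gave 7 of the 15 and was the gene with 2 circRNAs of at least 10 reads. By the coordinates of the circRNA table, an exonic circle at chr2:119076936-119081625 had 3, 4 and 6 reads at E18, 2, 2 and 2 reads at 3d and none at 8w, and that at chr2:119076936-119086650 had 1, 3 and 2 reads at E18, 1, 0 and 4 reads at 3d and none at 8w. Neither was called by edgeR at 3d against E18 (adjusted p = 0.904 and 0.975, 0 of 2 at an unadjusted p under 0.05), where 0.319% of 626 tested circRNAs were. Intervals cover counting error alone, and junction reads are not independent molecules.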

How the data were processed

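Total RNA of 9 heart libraries (3 at each of 3 stages) was analysed from deposited tables. FPKM per coding gene and lncRNA transcript were computed by the authors, with cutadapt 1.9.1, HISAT2 2.0.4 and Cuffdiff on GRCm38 and mm10, per the submitters' processing notes. The estimated counts deposited beside them were whole fragments times a factor per library (94.06% to 94.72% of low values whole within 0.01 after division), and edgeR and DESeq2 ran on the recovered, rounded fragments as alternatives. CircRNA counts are back-splice reads, per the file headers, tested from 10 reads in sum with edgeR 4.0.16 (TMM, quasi-likelihood). A further 9 per-sample columns of that table were not used.

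R 4.3.3 and limma 3.58.1 were used. Log2(FPKM + 1) of genes with a mean of at least 1 FPKM entered a limma-trend fit, all 9 libraries in 1 fit with 6 residual degrees of freedom, Benjamini-Hochberg adjusted p under 0.05; lncRNAs needed 0.5 FPKM. Fold changes on this scale understate those of low genes. The fit was tested on simulated data. The members, gene lists and promoter motifs were chosen with earlier results of these data known. Named genes were the 20 highest members, the 5 largest changes each way, the 4 highest of each list, those nearest the limits, those with an RNA entry at their locus and their partners in a list, and list genes outside the members highest at 3d (4 per list); Plk1, Nek2, Gnas, Snrpn, Impact, Ung, Shcbp1, Iqgap3, Cep55, Fam83d, Kif2c, Kifc1, Kif20b, Lpar3, Prss35 and Diap3 were chosen after their values were seen. Gene coordinates and names were checked in GENCODE vM21 (all 56 found by identifier). Alternatives were the pseudocount, filters, scaling, trend, stages in the fit, a replicate block, each library left out, other tools, other limits for membership and a shorter promoter window.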

Additional observations from a re-analysis of the deposited data

How the results depend on the processing

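The number of genes that met the rule followed its limits: 143 with a floor of 2.5 FPKM, 20 with 10 FPKM, 15 with a ceiling of 0.25 FPKM, 115 with 1 FPKM, and 22 when every library had to lie on its side. Quantile normalization left 40, median scaling 47, and leaving out a library 49 to 63 (49 without 8w replicate 3, 46 of them shared). Adding the lncRNA entries that overlap exons in sense to their genes, chosen after seeing the data, left 55, without Cks2. The entry uc009biz.1, named Ptn but classed as intergenic, was not added. At 8w it was at 0.635 FPKM, by itself above the ceiling of 0.5 FPKM. At 3d against E18 the members called (44, 1 of them higher) were 24 with a pseudocount of 0.1, and between 36 and 44 with a library left out. The cause was not tested. All coding genes called were 3147 and, with a library left out, 1832 to 3349, lowest without an E18 library (2030, 1968 and 1832 without replicates 1, 2 and 3). The median of the members was -0.70, and -0.54 under quantile normalization, -0.52 under median centring and -0.68 to -0.76 with a library left out. Scaling also moved the split of all calls, from 590 higher and 2557 lower to 1092 and 1149 (quantile), 1140 and 1006 (median centring), 1406 and 1215 (edgeR) and 1469 and 1497 (DESeq2), and the median of all tested genes lay at -0.15 as deposited and 0.02 after median centring. The sign turned for Frem1 (0.01 under quantile normalization, 0.02 under median centring) and Tmem255a (0.02, 0.03, 0.04 with edgeR and 0.02 with DESeq2), neither called. Of the 44 calls 22 held under every alternative run. Same-numbered 3d and E18 libraries showed little shared deviation (correlations 0.1, 0.068 and -0.076). With so few libraries this cannot exclude a pairing by number, and 8w was not examined. A replicate block gave 2701 coding calls and 44 member calls. No lncRNA entry at the loci was called with a filter of 0.1 FPKM. Adult fragments (median 34.5 per gene) limit the precision of every 8w level.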
